A study of Mus musculus with 6 samples.

Results

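Motile cilia are whip-like organelles that beat by sliding the microtubule doublets of their core, the axoneme, against each other. Axonemal dyneins, built from heavy chains (Dnah) and intermediate chains (Dnai), drive the sliding after assembly factors (Dnaaf) have put them together in the cytoplasm. Radial spokes (Rsph) relay signals from the central pair of microtubules to the dyneins, tektins (Tekt) are filament proteins inside the doublets, and the Cfap names cover a broad set of cilia and flagella associated proteins. In the brain the cells best known for motile cilia are the multiciliated ependymal cells that line the ventricles. The related epithelium of the choroid plexus is ciliated too. Oligodendrocytes are not known to carry motile cilia.

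The genes described here are the protein-coding genes whose symbol starts with Dnah, Dnai, Dnaaf, Cfap, Rsph or Tekt followed by a digit. Of 71 such genes, Cfap97d1 and Dnaaf6 were listed at 0 in every sample, which left 69 members of 55298 identifiers in all, 30054 of which were not at 0 throughout. The families hold 15 Dnah, 2 Dnai, 6 Dnaaf, 33 Cfap, 8 Rsph and 5 Tekt genes. For 62 of them the GENCODE symbol matched. Another 5 matched by the RefSeq symbol, namely Dyx1c1 (Dnaaf4), Pih1h3b (Dnaaf6b), Gm7173 (Cfap47), 1810043G02Rik (Cfap410) and 4930452B06Rik (Cfap20dc), and the Dnai genes are Dnaic1 and Dnaic2, for which RefSeq lists Dnai1 and Dnai2 as synonyms. Not every member is a gene of motile cilia alone, since Cfap20, Cfap36 and Dnaaf5 are known from many cell types.

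RNA was sequenced from O4-positive cells, labelled oligodendrocytes, of mice of the strain given as c56Bl/6j, taken from the brain by magnetic beads and not cultured. In the EAE group 6 mice had been immunised with the peptide MOG 35-55, which causes experimental autoimmune encephalomyelitis (EAE), and their RNA was pooled by 2 into 3 samples. In the OVA group 4 mice had received ovalbumin, and replicate 2 pooled 2 of them while replicates 1 and 3 held 1 mouse each. Cells of both groups were taken when disease was at its height, no further allele or agent is given for either group, and the age and sex of the mice are not given in the labels.

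Values are the authors' regularised log counts (rlog) on a log2 scale, so that a difference of 1 is a 2-fold change, and weakly expressed genes are shrunk towards their own mean. The table holds no counts, so depth is unknown. The defining genes of oligodendrocytes were present in every sample, with Mbp, myelin basic protein, between 16.87 and 17.73. Transcripts of other brain cells were present too, including Ttr, the transthyretin of choroid plexus epithelium, at 16.57 to 18.41. The groups also differed in sex-linked RNA. Xist, which coats the silenced X chromosome, stood at 13.50 to 14.16 in EAE and 7.39 to 7.63 in OVA, and Uty of the Y chromosome at 7.91 to 8.46 and 9.36 to 9.43, so that sex composition and treatment cannot be told apart. A limma fit over the 18161 genes with a mean rlog of at least 3 tested EAE against OVA, and a gene was called where its Benjamini-Hochberg adjusted p was under 0.05. Only Rsph6a, a radial spoke head gene, fell under that mean, at -1.49 over all samples, which left 68 members tested.

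Most axoneme genes lay slightly higher in the EAE pools. Of the 68 members, 62 (91.2%) had a positive difference against 49.3% of all genes tested, and the median difference of the members was 0.26 on the log2 scale, a 1.20-fold higher level, against -0.0024 over all genes. Individual calls were few. The limma test called 4 members higher in EAE (5.88%) and 0 lower, where 1.72% of all genes were called higher and 0.666% lower. They were Dnaaf3, Cfap65, Dnah2 and Dnah3. Without the adjustment, 33 members had p under 0.05, all of them higher in EAE (48.5%, against 9.17% of all genes higher and 7.15% lower). The 3 EAE values of a gene all exceeded the 3 OVA values for 36 members (52.9%, against 12.1% of all genes), and the reverse held for Dnah7b alone (1.47%, against 10.8%). Changes in the number of multiciliated cells and in RNA per cell cannot be told apart in such bulk samples.

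**Figure D1:**
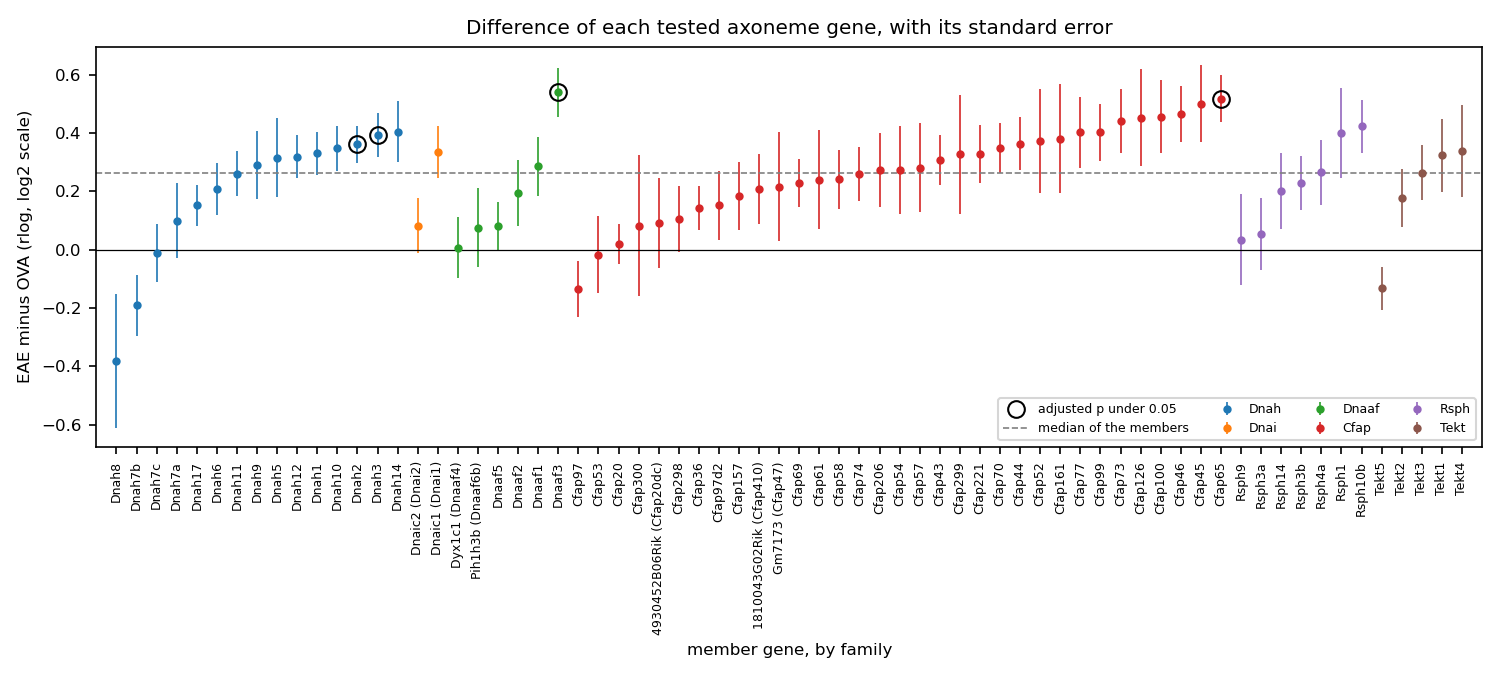
Difference between EAE and OVA (rlog, log2 scale) for each of the 68 tested members, by family, with standard errors; rings mark adjusted p under 0.05 and the dashed line the median of 0.26. The points of 62 members lie above 0, and those of Dnaaf3, Cfap65, Dnah2 and Dnah3 are ringed.

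The 4 called genes serve different steps of building and driving the axoneme. Dnaaf3 (ENSMUSG00000055809.7, GRCm38 chromosome 7, 4522933 to 4532453), a cytoplasmic factor needed to assemble dynein arms, read 9.90, 9.92 and 9.78 in EAE replicates 1 to 3 and 9.25, 9.32 and 9.42 in OVA. The lowest EAE pool thus lay above the highest OVA sample. Dnaaf3 rose by 0.54 ± 0.08 (SE), from 9.33 ± 0.09 to 9.87 ± 0.08 (SD, n = 3; limma adjusted p = 0.0233). Cfap65 (ENSMUSG00000047021.14, chromosome 1, 74902071 to 74935599), a protein of the central apparatus, read 12.85, 12.99 and 12.84 in EAE and 12.36, 12.46 and 12.31 in OVA, and rose by 0.52 ± 0.08 (limma adjusted p = 0.0237). Its groups were likewise apart, with OVA replicate 3 lowest.

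Dnah2 (ENSMUSG00000005237.14, chromosome 11, 69420809 to 69549110) and Dnah3 (ENSMUSG00000052273.4, chromosome 7, 119922671 to 120095280) encode heavy chains, the motor subunits, of inner dynein arms. Dnah2 read 10.78, 10.87 and 10.83 in EAE against 10.46, 10.45 and 10.48 in OVA, a rise of 0.36 ± 0.06 (limma adjusted p = 0.0354). Dnah3 read 10.83, 10.93 and 10.71 against 10.41, 10.45 and 10.43, a rise of 0.39 ± 0.08 (limma adjusted p = 0.0474). Both were nearly level across the OVA samples, with SDs of 0.02. The first gene outside the threshold was Cfap46, also of the central apparatus, at 0.46 ± 0.09 with a limma adjusted p of 0.0538.

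The number of calls moved with single samples. Leaving out the first or second EAE pool gave 0 members called higher (against 0.463% and 0.132% of all genes), and so did leaving out the first or second OVA sample (0.545% and 0.165%). Only Dnaaf3 was called without the third EAE pool (1.57% of all genes), and 16 members were without OVA replicate 3 (4.68%). Dnaaf3 and Cfap65 were the members called with no filter on low values (against 0.868% of all genes) or with centring on sample medians (1.82%), where Dnah2 and Dnah3 missed the threshold. Dnaaf3, Cfap65, Dnah2 and Dnah3 were again the members called with a mean rlog of at least 5 (1.96%) or quantile normalization (1.83%). Without the intensity trend (1.66%) the count was also 4, but Dnah3 missed the threshold (limma adjusted p = 0.0567) and Cfap99 passed it (0.0497). Weights for the quality of each sample gave 43 members higher (15.7% of all genes) and 2, Dnah8 and Tekt5, lower (12.3%). These weights were 0.275, 8.85 and 0.222 for OVA replicates 1 to 3, so the weighted OVA group rested mainly on replicate 2. The median difference of the members lay between 0.19 without OVA replicate 1 and 0.31 without OVA replicate 3.

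**Figure D2:**
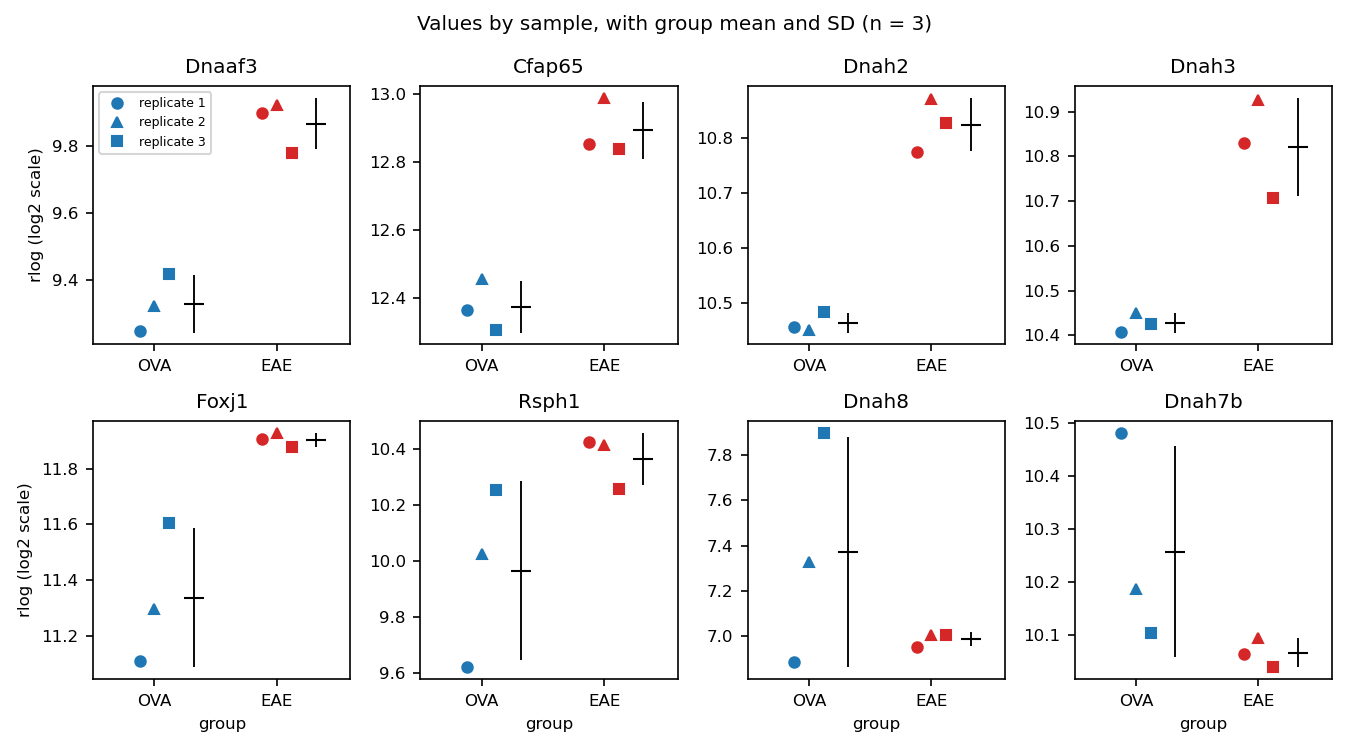
Values of the 4 called members, of the transcription factor gene Foxj1 and of Rsph1, Dnah8 and Dnah7b in each sample (rlog, log2 scale; marker shape gives the replicate), with the group mean and SD beside them (n = 3); each panel has its own axis, which does not start at 0. The groups do not overlap for the called members, and for Rsph1 the highest OVA value (10.25) lies just under the lowest EAE value (10.26); for Dnah8 OVA replicate 3 stands at 7.90, above every EAE pool.

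Of 10 inner arm heavy chain genes 8 lay above 0, with a median difference of 0.32, and 7 had all EAE values above all OVA values, which held for 12.1% of all genes. Dnah10, at 11.43, 11.64 and 11.50 in EAE and 11.22, 11.17 and 11.13 in OVA, differed by 0.35 ± 0.08 (limma adjusted p = 0.0697). Dnah14 differed by 0.40 ± 0.10 (0.106), Dnah1 by 0.33 ± 0.07 (0.0703) and Dnah12 by 0.32 ± 0.07 (0.0802). Dnah6 differed by less, at 0.21 ± 0.09 (0.308).

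The Dnah7 genes stood outside this pattern. Dnah7b read 10.07, 10.10 and 10.04 in EAE and 10.48, 10.19 and 10.11 in OVA, a difference of -0.19 ± 0.10 (limma adjusted p = 0.418), and Dnah7a and Dnah7c differed by 0.10 and -0.01. Dnah7a, Dnah7b and Dnah7c are closely similar genes on chromosome 1, so the authors' counting could split or drop their reads and these values are uncertain. The same holds for the pair Rsph3a and Rsph3b.

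Outer arm heavy chains divided by gene. Dnah5 and Dnah9, which form the outer arm motors of respiratory and ependymal cilia, differed by 0.32 ± 0.13 and 0.29 ± 0.12 (limma adjusted p = 0.303 and 0.273), and in both OVA replicate 3 lay within the EAE range, at 10.26 and 10.72. Dnah11 differed by 0.26 ± 0.08 (0.14) with no overlap. Dnah8, best known from sperm flagella, had the largest negative difference of all members, -0.38 ± 0.23 (0.462), but its OVA values spread from 6.89 to 7.90 while the EAE pools held 6.96 to 7.01. The difference was -0.62 without OVA replicate 1 and -0.12 without OVA replicate 3, where that of Dnah7b was more negative (-0.27). Dnah17, another sperm motor gene, was low in both groups, at 4.82 ± 0.04 in EAE and 4.66 ± 0.08 in OVA (SD, n = 3). Per kilobase of exon, that is the mean rlog minus log2 of the exon length in kilobases, it had the lowest level of the tested members at 0.73, against 6.75 for the members' median.

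The intermediate chains and assembly factors were mixed. Dnaic1, an outer arm intermediate chain, differed by 0.33 ± 0.09 (limma adjusted p = 0.115) with groups apart, whereas its partner Dnaic2 differed by 0.08 ± 0.09 (0.717). Among the assembly factors all 6 lay above 0 with a median of 0.14. Dnaaf1 differed by 0.29 ± 0.10 (0.22), while Dnaaf5, Dyx1c1 and Pih1h3b differed by 0.08, 0.01 and 0.08. Cfap298 and Cfap300, also needed for dynein assembly, differed by 0.11 and 0.08, with OVA replicate 3 the highest of the 6 samples for both.

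Radial spoke genes lay above 0 in all 7 tested cases, with a median of 0.23 and 0 called (against 1.72% of all genes higher and 0.666% lower). Rsph10b differed by 0.42 ± 0.09 (limma adjusted p = 0.0647), Rsph1 by 0.40 ± 0.15 (0.252) and Rsph4a by 0.26 ± 0.11 (0.3). Rsph1, a spoke head protein, had the highest level per kilobase of exon of all members, at 9.71, with Cfap65 next at 9.67. Its OVA values of 9.62, 10.03 and 10.25 spanned more than its EAE values of 10.43, 10.42 and 10.26, so the groups are separated by very little. Rsph9 did not separate the groups, at 0.03 ± 0.16 (0.943).

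Of the tektins, Tekt1 to Tekt4 lay above 0 (0.18 to 0.34) and Tekt5 below (-0.13 ± 0.07, limma adjusted p = 0.425). Tekt1 read 9.22, 9.25 and 9.20 in EAE and 8.66, 8.89 and 9.14 in OVA, so the EAE pools were closely alike and the OVA samples were not. Tekt4 differed by 0.34 ± 0.16 (0.348) with overlap. Tekt5 was weakly expressed, at 4.15 to 4.42, where the shrinkage of the rlog is strong.

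The Cfap genes were divided by the part of the axoneme they belong to. For the central apparatus all 7 genes lay above 0 with a median of 0.27, and 5 had all EAE values above all OVA values (against 12.1% of all genes). For the proteins that tether or regulate inner arms (Cfap43, Cfap44, Cfap57, Cfap73 and Cfap100), all 5 lay above 0 with a median of 0.36. Cfap44 read 11.70, 11.94 and 11.68 in EAE and 11.34, 11.48 and 11.42 in OVA, a difference of 0.36 ± 0.09 (limma adjusted p = 0.0969). Of 7 proteins that sit inside the microtubules, 6 lay above 0 with a median of 0.38. Cfap45 led them at 0.50 ± 0.13 (0.111), while Cfap20 and Cfap53 differed by 0.02 and -0.02. Cfap206 and Cfap61, of the spoke and calmodulin complexes, differed by 0.27 and 0.24, with overlap in both. The 10 Cfap genes assigned to none of these groups, nor to dynein assembly, had a median of 0.20. They include Cfap97, which had the largest negative difference of the family, at -0.13 ± 0.10 (0.529), and Cfap36, at 0.14 ± 0.08 (0.402).

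**Figure D3:**
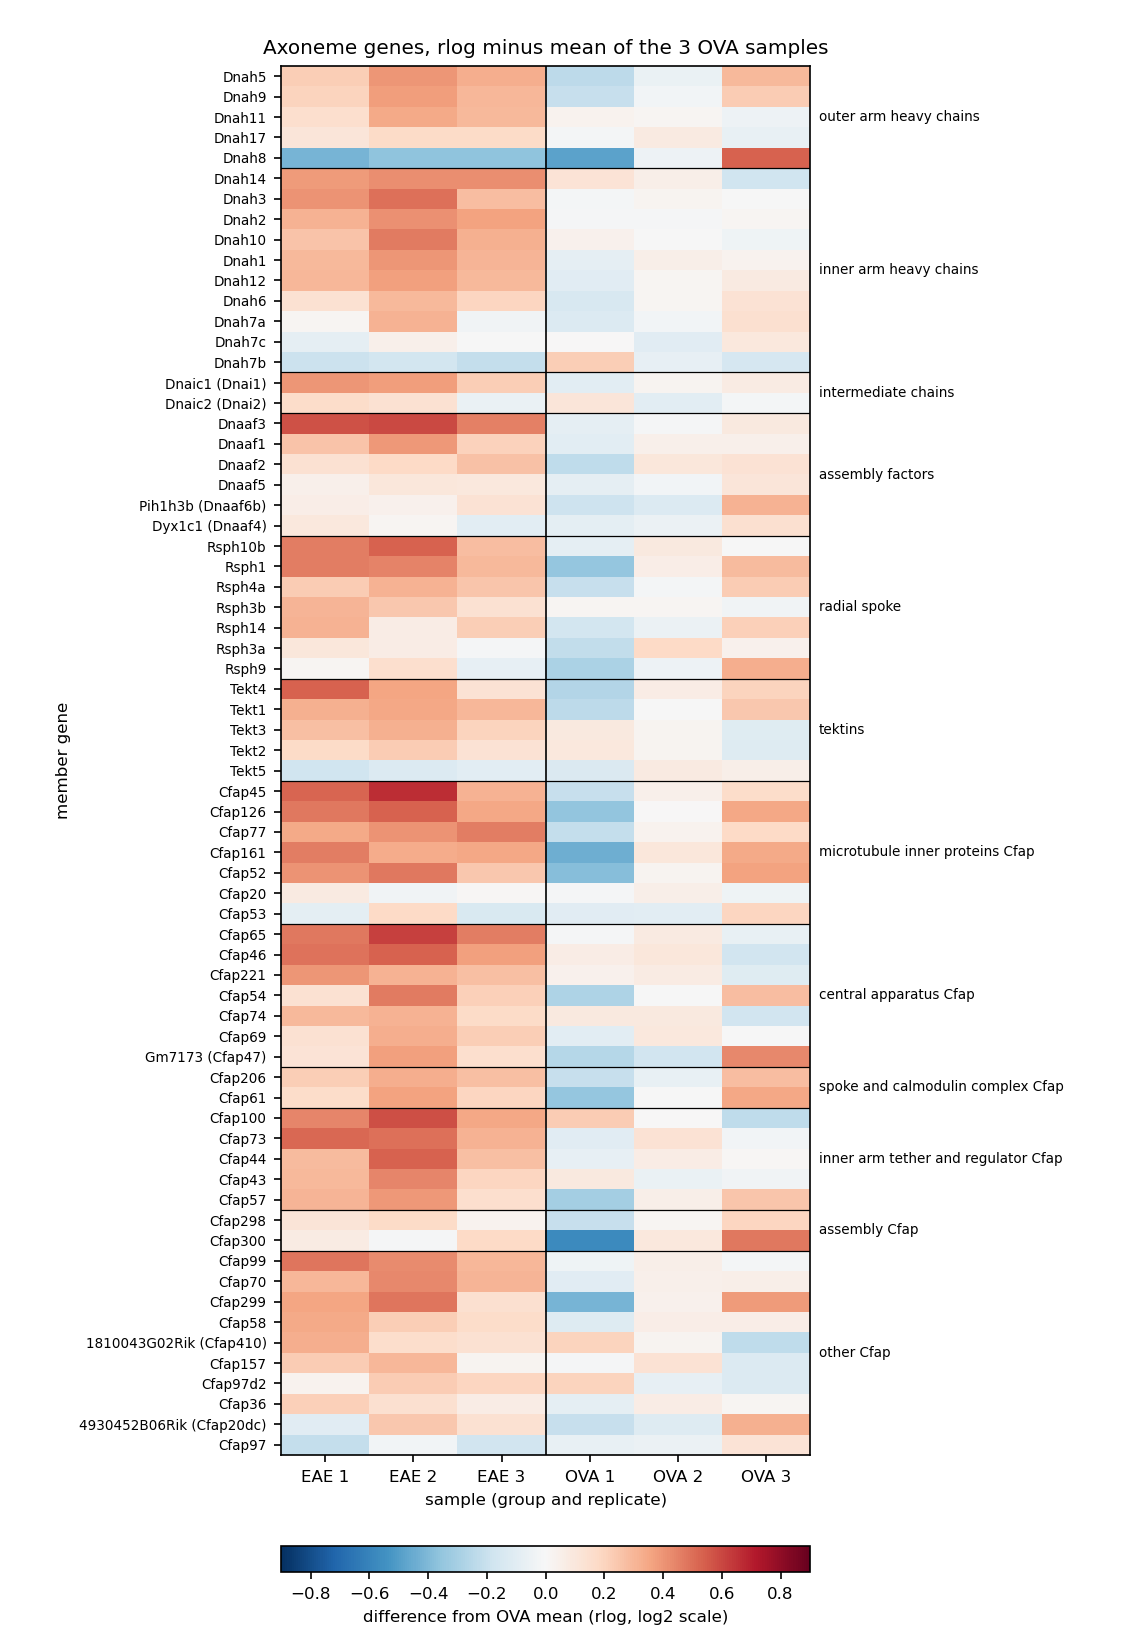
Each tested member in each sample as its rlog value minus the mean of the 3 OVA samples (red higher, blue lower, log2 scale), ordered by role; names in brackets are RefSeq symbols or synonyms. Red fills most of the EAE columns, and among the OVA columns replicate 1 is the bluest, with the lowest of the 6 values for 43 members.

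The OVA samples differed among themselves. OVA replicate 1 held the lowest of the 6 values for 43 of 68 members (63.2%, against 24.2% of all genes), and EAE replicate 2 the highest for 35 (51.5%, against 9.36%). OVA replicate 3 was the highest OVA sample for 39 members (57.4%, against 40.2%) and the lowest for 17. Its distance from the mean of the other OVA samples had a median of 0.12 over the members. By role the median was 0.50 for the Cfap genes of dynein assembly, 0.47 for those of the spoke and calmodulin complexes, 0.35 for outer arm heavy chains, 0.33 for radial spoke genes and 0.29 for the proteins inside the microtubules. It was 0.18 for the Dnaaf genes, 0.08 for tektins, 0.05 for the other Cfap genes, 0.04 for inner arm heavy chains and for intermediate chains, -0.04 for the tether and regulator genes and -0.10 for the central apparatus. Single genes within a role went both ways, such as Rsph10b (-0.01) and Rsph3b (-0.05) among the radial spokes and Dnah11 (-0.07) among outer arm chains, and differences between roles were not tested.

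Promoter sequence was examined as a feature that the choice of members had not used. Motile cilia genes are known targets of RFX transcription factors and of FOXJ1. RefSeq promoter windows (GRCm38.p6, 250 bases before to 50 after the start) were found for 57 members. An RFX motif, GTTGCC, which reads as GGCAAC on the other strand, was searched for in these exact letters only. Variants of it were not counted. It was present for 24 of the 57 (42.1%), against 15.0% of 11883 protein-coding genes tested and 14.1% of all 27025 genes with a window. By family it was present for 4 of 14 Dnah, 1 of 2 Dnai, 4 of 5 Dnaaf, 11 of 26 Cfap, 3 of 5 Tekt and 1 of 5 Rsph genes. Counting a position once where windows of a gene overlap, there were 35 such motifs, 20 of them within 100 bases before a start. The forkhead core GTAAACA, or TGTTTAC on the other strand, was present for 4 members (7.02%), against 3.27% of protein-coding genes tested. Neither motif contains the other.

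The windows of 5 members are printed 5′ to 3′ on the gene's strand, with the RFX motif in capitals, to show where it lies in members near and past the threshold. Dnaaf3 (chr7:4532416-4532715, minus strand) and Dnah2 (chr11:69549059-69549358, minus) are the called members with a window, and neither holds the motif in these exact letters. Whether they hold other RFX sites was not examined. Cfap46 (chr7:139683766-139684065, minus), Dnah10 (chr5:124724835-124725134, plus) and Cfap44 (chr16:44394549-44394848, plus) have the smallest p among members that hold it.
Dnaaf3: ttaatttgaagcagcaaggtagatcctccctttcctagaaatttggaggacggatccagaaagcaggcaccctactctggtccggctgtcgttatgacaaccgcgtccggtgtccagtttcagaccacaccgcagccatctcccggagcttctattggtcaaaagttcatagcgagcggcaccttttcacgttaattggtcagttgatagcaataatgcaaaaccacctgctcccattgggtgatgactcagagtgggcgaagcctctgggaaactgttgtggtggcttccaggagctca
Dnah2: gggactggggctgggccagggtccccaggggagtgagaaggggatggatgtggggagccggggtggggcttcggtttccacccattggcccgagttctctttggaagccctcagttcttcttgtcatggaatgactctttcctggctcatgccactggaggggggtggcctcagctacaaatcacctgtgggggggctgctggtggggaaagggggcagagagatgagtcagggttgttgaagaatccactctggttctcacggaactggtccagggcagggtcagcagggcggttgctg
Cfap46: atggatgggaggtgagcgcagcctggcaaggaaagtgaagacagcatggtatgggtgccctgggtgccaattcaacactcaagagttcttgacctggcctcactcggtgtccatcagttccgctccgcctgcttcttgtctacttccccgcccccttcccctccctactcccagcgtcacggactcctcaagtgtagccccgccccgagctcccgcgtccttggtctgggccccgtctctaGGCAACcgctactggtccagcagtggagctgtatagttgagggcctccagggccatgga
Dnah10: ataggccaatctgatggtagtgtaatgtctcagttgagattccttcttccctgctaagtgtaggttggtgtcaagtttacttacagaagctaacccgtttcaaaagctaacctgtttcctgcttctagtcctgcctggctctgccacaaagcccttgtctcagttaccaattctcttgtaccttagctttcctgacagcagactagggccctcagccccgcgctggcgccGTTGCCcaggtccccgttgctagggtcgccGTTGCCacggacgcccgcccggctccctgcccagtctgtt
Cfap44: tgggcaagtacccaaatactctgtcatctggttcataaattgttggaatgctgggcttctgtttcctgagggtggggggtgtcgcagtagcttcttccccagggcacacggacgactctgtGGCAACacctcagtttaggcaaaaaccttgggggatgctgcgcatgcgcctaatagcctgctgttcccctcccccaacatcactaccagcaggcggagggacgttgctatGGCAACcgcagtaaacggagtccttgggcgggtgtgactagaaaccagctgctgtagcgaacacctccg
In Cfap46 the motif is centred 6 bases before the start. Dnah10 holds it on both sides of the start, 17 bases before and 13 after, and Cfap44 at 126 and 16 bases before. The 24 members with the motif had a median difference of 0.16 and 0 called. The 32 tested members with a window but without it had a median of 0.29 and 2 called. Over all genes 1.72% were called higher and 0.666% lower, so so few calls cannot set the 2 sets apart, and their difference was not tested.

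Other genes of motile cilia were taken from a list of 38, of which 34 were found and tested. All 34 lay above 0 with a median of 0.29, close to that of the members. Of them 0 were called, against 1.72% of all genes higher and 0.666% lower (11 at an unadjusted p under 0.05, all higher). Zmynd10, which acts with the dynein assembly factors, differed by 0.47 ± 0.10 (limma adjusted p = 0.0567), and Lrrc23, a radial spoke protein, by 0.45 ± 0.10 (0.0712). Hydin, a giant protein of the central pair, read 10.49, 10.82 and 10.61 in EAE and 10.11, 10.42 and 10.64 in OVA, so the groups overlapped (0.25 ± 0.15, 0.45). Genes of intraflagellar transport and of the primary cilium, a non-motile antenna found on most cell types, stayed near the median of all genes. Their 31 members had a median of 0.01, with 19 above 0, 0 called and 0 at an unadjusted p under 0.05, and Ift43 and Ift22 had the smallest p, at 0.20 and 0.18 (limma adjusted p = 0.309 and 0.323).

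Of 14 tested regulators of multiciliation, 10 lay above 0 and 4 below with a median of 0.05, and 1 was called higher in EAE (against 1.72% of all genes). It was Ccdc78, a protein of the structure that produces many centrioles, at 9.36, 9.52 and 9.16 in EAE and 8.78, 8.76 and 8.86 in OVA, a rise of 0.54 ± 0.11 (limma adjusted p = 0.0496). It missed the threshold with no filter on low values (limma adjusted p = 0.0622) or when replicate 1 or 2 of either group was left out (limma adjusted p from 0.109 to 0.194). Foxj1, the master transcription factor of motile cilia, read 11.91, 11.93 and 11.88 in EAE and 11.11, 11.30 and 11.60 in OVA. The groups were apart, but the difference of 0.57 ± 0.12 did not pass (limma adjusted p = 0.0625). Foxj1 did pass without OVA replicate 3 (0.70, limma adjusted p = 0.00438) and with centring on sample medians (0.54, 0.0471). It also passed with sample quality weights (0.61, 0.000257) and with the mean of the choroid plexus markers as a covariate (0.62, 0.00742). In that order, these settings called 4.68%, 1.82%, 15.7% and 4.18% of all genes higher. The weighted OVA group rested mainly on replicate 2, and the covariate was chosen after seeing the data. Foxj1 missed the threshold in every other setting, with limma adjusted p from 0.06 (mean rlog of at least 5) to 0.219 (without EAE replicate 2). The RFX factor genes Rfx2 and Rfx3 differed by 0.22 ± 0.10 and -0.15 ± 0.07 (limma adjusted p = 0.3 and 0.358). Rfx4, of the same family, had EAE values of 9.02 to 9.27 below OVA values of 9.52 to 9.89, a difference of -0.52 ± 0.12 that did not pass (limma adjusted p = 0.0762). Mcidas and Cdc20b, which act early in multiciliated cell formation, were at mean rlog values under 3 and were not tested.

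**Figure D4:**
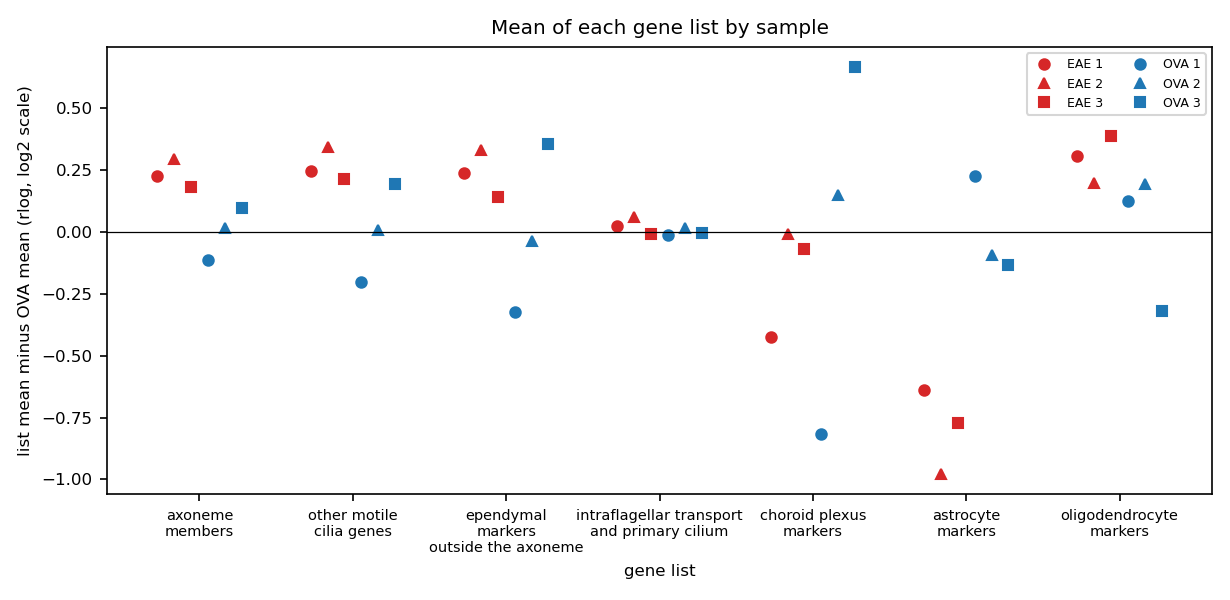
Mean of each gene list in each sample minus its OVA group mean (rlog, log2 scale; red EAE, blue OVA, marker shape gives the replicate). The axoneme members average 8.83 to 8.95 in EAE and 8.54 to 8.75 in OVA, the transport and primary cilium list is level, and choroid plexus markers spread from 11.01 to 12.49 within OVA alone.

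Markers of the cells that carry motile cilia moved with the members in part. Averaged over the 68 members, the rlog was 8.88, 8.95 and 8.83 in EAE and 8.54, 8.67 and 8.75 in OVA, so no OVA sample reached an EAE pool. Of 12 ependymal markers outside the axoneme, Foxj1 among them, 9 lay above 0 with a median of 0.33. The limma test called 0 of these markers, against 1.72% of all genes higher and 0.666% lower (4 at an unadjusted p under 0.05). Their mean was 10.36, 10.45 and 10.27 in EAE and 9.80, 10.09 and 10.48 in OVA, which overlap. Ccdc153 differed by 0.50 ± 0.14 (limma adjusted p = 0.125), and Mia was near the filter at 2.99 to 3.11. The markers below 0 were Acta2 (-0.32), Pltp (-0.29) and Mia (-0.01). The list is not exclusive to ependyma, since Acta2 and Pltp are also strongly expressed by vascular cells. Whether the markers above 0 are more exclusive was not assessed.

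Choroid plexus markers varied most. All 12 were lowest in OVA replicate 1 and highest in OVA replicate 3, with list means of 11.40, 11.82 and 11.76 in EAE and 11.01, 11.98 and 12.49 in OVA and a median difference of -0.15 with 0 called. With that mean as a covariate, an alternative chosen after seeing the data, 26 members were called higher (38.2%, against 4.18% of all genes) at a median of 0.30. Beside these, all 8 astrocyte markers lay below 0 (median -0.86, 5 called lower), and 5 of 8 myeloid and 4 of 8 T cell markers were called higher (medians 0.84 and 0.54). Over all genes 1.72% were called higher and 0.666% lower. All 10 oligodendrocyte markers lay above 0 with a median of 0.29, beside 0.26 for the axoneme members, and all 8 endothelial markers lay below 0 (median -0.56). The part of cell composition in the difference of the axoneme genes was not tested, and a covariate chosen after seeing the data cannot test it.

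Overlapping genes limit some values. The library kit keeps strand, but the sources used here do not say whether the counting used it. Exons of the called members overlap exons of genes on the opposite strand over 12.6% (Dnaaf3, by Gm15873), 3.67% (Cfap65, by Gm15841), 2.08% (Dnah2, by Dnah2os) and 10.5% (Dnah3, by Lyrm1) of their bases, and Dnaaf3 shares 3.87% with Tnni3 on its own strand. In all, 9 members overlap a gene on the opposite strand, and 4 one on the same strand, over more than 10% of their exon bases. The largest shares were those of Dyx1c1 (59.24% same strand, 37.37% opposite), Cfap298 (53.56% opposite) and Dnaaf2 (38.73% same strand, 32.65% opposite). Dnaaf1 (20.7% opposite) and Rsph10b (13.22% same strand) are also among them.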

How the data were processed

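Per the labels' protocols, RNA of O4-selected cells entered the TruSeq Stranded mRNA kit. GRCm38 is the build, and STAR 2.6.1c, Subread 1.6.1, DESeq2 1.24.0, cutadapt 1.18 and bcl2fastq 2.17 are the tools, listed without roles in the submitters' processing notes. The authors deposited 1 log2 value per gene and sample, by its name the rlog of library-size-scaled counts; the annotation release, and whether groups entered the transformation, are not given in the sources used here.

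Symbols and positions came from GENCODE M21 (GRCm38) for 55117 of 55298 identifiers. Genes at 0 in every sample and genes with a mean rlog under 3 were left out. limma 3.58.1 (R 4.3.3, intensity trend, two-sided) gave every adjusted p, after being tested on simulated data. The adjustment was over 18161 genes, except over 30054 with no filter on low values and 15275 with a mean rlog of at least 5. An exact permutation test of 3 against 3 cannot give p under 0.1 (two-sided). Pools are averages of mice, so p-values measure the spread between samples. Except with sample quality weights, the fit assumed equal spread in both groups, though the members' median SD was 0.14 in OVA and 0.09 in EAE. The members and lists were chosen with earlier results of these data known.

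Genes chosen for naming were all called members, and per family the 2 with the highest mean and the 2 largest differences in each direction. Also chosen were the 2 smallest p of each other list, and Foxj1, Rfx2, Rfx3 and Hydin. Those chosen from the oligodendrocyte, astrocyte, endothelial, myeloid, T cell and neuron lists are not given singly in the text. Others named were chosen after their values were seen. Of the control lists, oligodendrocyte, endothelial and neuron markers had median differences of 0.29, -0.56 and 0.11, each with 0 called by limma. At an unadjusted limma p under 0.05, 1 oligodendrocyte and 1 neuron marker were higher and 5 of 8 endothelial markers lower. Over all genes 9.17% were higher and 7.15% lower at that level. Of 5 sex-linked genes 1 was called higher and 3 lower, against 1.72% and 0.666% of all genes.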

Additional observations from a re-analysis of the deposited data

How the results depend on the processing

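No paired analysis was possible because replicate numbers only follow the order of the samples. The 4 members called higher (against 1.72% of all genes) became 2 without the filter on low values (0.868%) and 2 with values centred on each sample's median (1.82%). Array quality weights called 43 members higher (15.7%) and 2 lower (12.3%), and gave OVA replicates 1 to 3 weights of 0.275, 8.85 and 0.222. With the choroid plexus covariate, which was chosen after seeing the data, 26 members were called higher (4.18%). The same 4 genes were called with a mean rlog of at least 5 or quantile normalization, and without the intensity trend Cfap99 took the place of Dnah3. Over all genes, 312 higher and 121 lower became 2858 and 2233 with array weights and 760 and 575 with the covariate. With 1 sample left out, members called higher ranged from 0 to 16, all genes higher from 24 to 850 and lower from 1 to 346. The median of the members stayed positive in every setting run (0.19 to 0.31). Over the alternatives, adjusted p ran from 0.00028 to 0.129 for Dnaaf3, 0.00078 to 0.128 for Cfap65, 0.00063 to 0.189 for Dnah2 and 0.0016 to 0.209 for Dnah3. Among the named genes, signs reversed for Cfap53 (-0.02 as reported, 0.0985 with array weights, 0.0147 with the covariate, -0.114 to 0.0811 with 1 sample left out) and, without OVA replicate 3, for the choroid plexus genes Aqp1 (-0.831 to 0.073 with 1 sample left out) and Sostdc1 (-0.753 to 0.0531). The cause was not tested. Depth is unknown, so what it limits cannot be stated.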

Other observations

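Axonemal dynein genes that carry other names in the annotation used here were looked up after the other values had been seen. Wdr63 and Wdr78, which encode intermediate chains of an inner arm dynein, read 9.39, 9.63 and 9.40 and 10.39, 10.62 and 10.42 in EAE, against 8.84, 9.23 and 9.36 and 9.86, 10.25 and 10.44 in OVA. The groups were just apart for Wdr63 and overlapped for Wdr78, with differences of 0.33 ± 0.15 and 0.30 ± 0.15 (SE; limma adjusted p = 0.321 and 0.378). Casc1, a dynein-associated protein, differed by 0.35 ± 0.12 (0.215).

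Spread within groups was unequal. The SD of the OVA samples exceeded that of the EAE pools for 51 of 68 members, with medians of 0.14 and 0.09, and for 76.1% of all genes. Each EAE sample pooled 2 mice, while 2 of the OVA samples held 1.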
